A study of Mus musculus with 26 samples.

Results

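The 125 genes described here are ribosomal protein pseudogenes, copies of ribosomal protein genes whose deposited symbol begins with Rpl or Rps and contains -ps. They were taken by that symbol from the 21031 genes of the deposited normalized table, which kept genes with over 50 counts in total. Their values were not otherwise used, but a copy high in 1 set of libraries reaches that minimum more easily. The libraries were made from poly(A) RNA of mesenteric arteries, the vessels that feed the gut, of male mice aged 8 weeks. The 8 groups were 3 wild-type and 3 global Panx1 knockout libraries, and 3 lines with 1 changed residue of pannexin 1, each with its own controls. These were 3 Y198F and 3 Y198F control libraries, 4 S205A and 4 S205A control libraries, and 3 Y308F and 3 Y308F control libraries. Pannexin 1, the product of Panx1, forms channels that release ATP and other small molecules, and the mutations replace tyrosine (Y198F, Y308F) or serine (S205A) residues. The labels write the genotype of the mutants with +/+ and that of their controls with -/-, and the controls are littermates or wild-type mice per the design text. That text speaks of 3 vascular trees for a genotype, while both S205A groups hold 4 libraries. Nothing states whether each library came from a separate animal, so p-values measure the spread between these libraries, which may be technical.

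The libraries also fall into 2 kinds by name. The names of 9 of the 26 contain a number starting with 22, and these are called the 22 series. They are the 3 Y198F libraries, S205A controls 1 to 3 and S205A libraries 2 to 4. The other 17 are every remaining library, including all 3 Y198F controls, S205A control 4 and S205A library 1. The labels do not say what this number means. The Y198F comparison lies wholly across the 2 kinds of library, and only the S205A line has both kinds in each genotype. The libraries held from 1.49e+07 to 2.02e+07 counts in the 22 series and from 1.73e+07 to 2.36e+07 in the others. In CPM, which scales counts to a common library size, Panx1 was at 0.961 ± 0.388 (SD, n = 3) in the knockout libraries and 4.41 ± 0.891 (SD, n = 3) in wild type. All 7 smooth muscle markers listed (Acta2, Myh11 and others) were detected, with a summed level of 24522 to 45237 CPM in the 22 series and 21924 to 37317 in the others, and 5 of them were called higher in the 22 series, where 19.2% of all genes tested were higher and 17% lower. Of 5 Schwann cell and nerve markers 4 were called lower there, with summed levels of 56.5 to 174 and 83.3 to 381 CPM, and of 6 fibroblast markers 2 were lower, with 1405 to 5805 and 1816 to 4604 CPM. None of the 7 endothelial markers was called. The part of these cells in the results was not tested, and in bulk tissue fewer cells of a type and less RNA per cell cannot be told apart.

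Ribosomal proteins form the small (Rps) and large (Rpl) subunits of the ribosome together with ribosomal RNA. Their mRNAs are among the most abundant in a cell, and reverse transcription of such mRNAs into the genome leaves processed pseudogenes, copies without introns. Most are thought not to make protein, and since they can be nearly identical to the parent mRNA, a short read often cannot say which of them it came from.

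The copies shared a plain structure. All 125 have 1 exon in the GENCODE vM39 annotation of GRCm39, which calls 103 of them processed pseudogenes, 20 transcribed processed pseudogenes and 2 protein-coding genes (Rpl10-ps3 and Rpl9-ps6). The deposited biotype differs, with 105 processed pseudogenes and 15 protein-coding genes. Of the 125, 72 are copies of 29 large subunit genes and 53 are copies of 18 small subunit genes, so 47 parent genes stand behind them. Annotated transcripts ran from 151 to 1214 bases with a median of 468. Identity to the closest coding transcript of the parent had a median of 98.7%. For 11 copies it was 100%, for 36 it was 99% to under 100%, for 47 it was 97% to under 99%, and for 31 it was under 97%. In 123 the closest ribosomal protein gene was the one in the symbol. The exceptions were Rpl18-ps1, which is 55.6% identical to Rpl18, and Rpl36a-ps3, 87.7% identical to Rpl36a and closest to Rpl36al. An open reading frame at least as long as the parent's was present in 80 and a shorter one in 45. By position 55 lie between genes, 44 inside an intron of another gene and 26 over an exon of another gene. The labels do not say whether counting used strand, so counts of the last group are uncertain.

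The stretches below show how close the copies are, and were chosen to span the range of the results. Each line gives 90 bases, 5′ to 3′, of the copy and of the coding part of its parent transcript. Bases that differ between them are in capitals. For the 4 copies that differ from the parent it is the window with most substitutions and no gap, and for the 2 identical copies the first window. All are from GRCm39. Rps6-ps4 (chr2:75022077-75022166, minus strand) and Rps12-ps3 (chr19:59310803-59310892, plus strand) are identical to their parents over their whole annotated length. Rpl35a-ps3 (chr17:29356123-29356212, minus strand) differs from Rpl35a by 1 base. Rpl13-ps3 (chr14:59131022-59131111, plus strand), Rpsa-ps12 (chr4:149227327-149227416, minus strand) and Rps19-ps3 (chr4:147906399-147906488, minus strand) are more diverged.
Rps6-ps4 and Rps6: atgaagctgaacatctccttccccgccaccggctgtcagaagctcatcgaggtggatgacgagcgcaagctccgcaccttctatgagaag
Rps12-ps3 and Rps12: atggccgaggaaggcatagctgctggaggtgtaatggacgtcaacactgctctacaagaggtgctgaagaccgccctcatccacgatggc
Rpl35a-ps3: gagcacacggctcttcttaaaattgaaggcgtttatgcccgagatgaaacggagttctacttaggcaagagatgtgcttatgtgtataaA
Rpl35a: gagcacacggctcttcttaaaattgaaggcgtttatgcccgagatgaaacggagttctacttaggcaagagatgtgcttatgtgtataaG
Rpl13-ps3: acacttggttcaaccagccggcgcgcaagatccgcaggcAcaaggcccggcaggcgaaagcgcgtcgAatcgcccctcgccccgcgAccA
Rpl13: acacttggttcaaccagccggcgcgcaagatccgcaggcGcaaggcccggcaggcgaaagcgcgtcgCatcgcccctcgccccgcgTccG
Rpsa-ps12: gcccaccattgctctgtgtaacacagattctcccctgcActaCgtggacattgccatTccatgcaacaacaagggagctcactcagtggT
Rpsa: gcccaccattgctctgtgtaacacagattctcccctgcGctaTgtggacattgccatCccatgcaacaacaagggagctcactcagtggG
Rps19-ps3: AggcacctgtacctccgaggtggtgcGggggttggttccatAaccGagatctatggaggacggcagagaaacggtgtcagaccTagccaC
Rps19: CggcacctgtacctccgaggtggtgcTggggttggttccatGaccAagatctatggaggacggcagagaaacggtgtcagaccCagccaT

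Counted from 1 at the left of the printed stretch, with the parent's base first, the window of Rpl13-ps3 holds G40A, C68A, T87A and G90A. That of Rpsa-ps12 holds 4 substitutions and that of Rps19-ps3 holds 6. Reads here were pairs of 150 bases, and the share of a copy's 150-base windows that also occur in a transcript of the parent shows how much of it a single read cannot tell apart. All windows did so in 11 copies, which are the identical ones, and none did in 45. A window shared with another of the pseudogenes occurred in 66. Rpl35a-ps2, Rpl35a-ps3, Rpl35a-ps4 and Rpl35a-ps6 are identical to one another, and so are Rps19-ps1 and Rps19-ps2, so reads from inside them cannot be divided by sequence.

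The 125 pseudogenes took a larger share of the counts in every library of the 22 series than in any other library. Their summed share was 0.0863% to 0.119% in the 9 libraries (median 0.102%) and 0.0307% to 0.0505% in the 17 (median 0.0390%). The means were 0.1004% ± 0.0104 (SD, n = 9) and 0.0386% ± 0.00502 (SD, n = 17), a ratio of 2.60. The ratio of the summed share without Rps6-ps4, the copy with most counts, was 3.16, and the median ratio over the genes, from mean log2 CPM with 0.1 CPM added, was 4.65. The added value lowers the ratio of copies near 0. The split ran through the S205A line rather than between its genotypes. S205A controls 1, 2 and 3 were at 0.0892%, 0.104% and 0.110%, and S205A control 4 was at 0.0338%. S205A libraries 2, 3 and 4 were at 0.09999%, 0.102% and 0.0911%, and S205A library 1 was at 0.0336%. The 3 Y198F libraries were at 0.119%, 0.0863% and 0.102%, and their labelled controls at 0.0307%, 0.0448% and 0.0371%. In wild type the range was 0.0390% to 0.0505%, in the knockout 0.0391% to 0.0426%, in the Y308F controls 0.0359% to 0.0407% and in Y308F 0.0323% to 0.0378%.

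**Figure D1:**
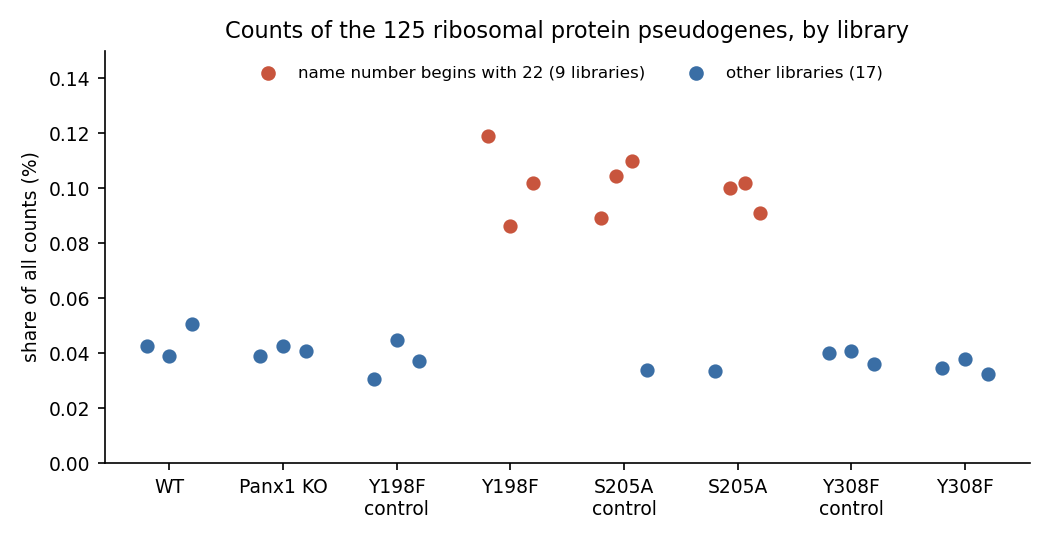
Summed share of all counts (%) of the 125 ribosomal protein pseudogenes, 1 point per library, by group, with red for the 22 series and blue for the other libraries. The 9 red points lie between 0.0863% and 0.119% and the 17 blue points between 0.0307% and 0.0505%, including 1 blue point in each S205A group.

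The parent genes as a sum did not differ in this way over the 26 libraries. Their summed level was similar, a ratio of 0.986 between the means of the 2 kinds of library, and the ranges overlapped. Within the S205A line they did not, at 9897 to 11706 CPM in the 6 libraries of the 22 series and 9161 and 9613 in the other 2. Of the 47 parents, 13 were called higher and 9 lower in the 22 series, with a median log2 fold change of 0.00, where 19.2% of all genes tested were higher and 17% lower. Within the S205A line, in a fit with genotype as a term, 9 of the 47 were called higher (background 3.87%) and 2 lower (background 1.16%). There 26 of the 47 were higher without overlap, where 14.2% of all genes were, 35 had a positive log2 fold change, and their median was 0.18, against 0.00 over all genes. Counts of the copies were 9.36 per 100 counts of their parents in the 22 series and 3.63 in the others (means over 9 and 17 libraries), a ratio of 2.58. As a median over genes within each library the ratio was 7.70. Other quantities differed between the same libraries: annotated ribosomal RNA took a mean of 0.106% of the counts in the 22 series and 3.73% in the others. Without ribosomal RNA and mitochondrial genes in the total, the ratio of the pseudogene shares was 2.50. The part of ribosomal RNA in the result was not tested further. In the 22 series 116 to 124 of the 125 had at least 1 count, against 99 to 115 in the others.

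Gene by gene the rise was broad. The 2 kinds of library did not overlap, with the 22 series higher, in 81 of the 125, where 3.16% of all 21031 genes of the table did so, and they did not overlap in the other direction in 0, where 0.989% of all genes did so. Mean CPM was higher in the 22 series for 122 and lower for 3, Rpl14-ps1, Rpl30-ps2 and Rpl13-ps5. In edgeR's quasi-likelihood test without a filter on low counts, which covers all 125, 116 were higher at an adjusted p under 0.05, against 13.1% of all genes, and 0 were lower, against 14.6%. Their median log2 fold change was 2.73, against -0.16 over the 34341 genes tested, which unlike the 125 had no minimum of over 50 counts. With the usual filter 85 were tested and 82 called higher (background 19.2%) with 0 lower (background 17%). That filter favours genes that are high in 1 set of libraries: 12 of the 85 reached 10 counts in none of the 17 other libraries. Chosen on the mean count over all libraries instead, 83 were tested and 80 were higher (19.7% of all genes tested). Among other annotated processed pseudogenes the unfiltered median was 0.68 over 4510 genes, which had no minimum of over 50 counts. Among 109 other genes with -ps in the symbol it was 0.78. With the usual filter 451 of 749 other processed pseudogenes (60.2%) were higher. Of these 749, 38.6% did not overlap with the 22 series higher, against 88.2% of the 85. A rise in the 22 series was thus not particular to the ribosomal protein copies.

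Among the 12 with the highest mean CPM, all but 1 rose, and the copies with most counts rose least. Rps6-ps4 (chr2:75021417-75022166, in an intron of 2600014E21Rik on the other strand) is a copy of Rps6, the small subunit protein that S6 kinases phosphorylate. It had 131 to 183 CPM in the 22 series (median 156) and 89.7 to 162 in the others (median 120), so the ranges overlapped. Its log2 fold change was 0.41 (with SE 0.0767, adjusted p 9.82e-05 by edgeR). It held 15.8% of all counts of the 125 in the 22 series and 30.5% in the others. Rps6 itself differed by -0.04 (with SE 0.0773, adjusted p 0.749 by edgeR).

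Rpl15-ps3 (chr9:22096903-22097517), identical to the large subunit gene Rpl15, had 64.4 to 92.0 CPM in the 22 series (median 78.0) and 42.6 to 70.6 in the others (median 53.0). Its log2 fold change was 0.54 (with SE 0.0700, adjusted p 3.37e-07 by edgeR), with Rpl15 at 0.06 (adjusted p 0.504 by edgeR). Rpl10a-ps1 (chr1:65033110-65033763, over an exon of Akr1cl on the same strand) had 30.3 to 43.9 CPM in the 22 series and 17.2 to 27.7 in the others, without overlap and with a log2 fold change of 0.87 (with SE 0.0796, adjusted p 3.96e-10 by edgeR). Its parent Rpl10a also rose, by 0.37 (with SE 0.0708, adjusted p 0.000111 by edgeR). Rpl3-ps1, a copy of Rpl3, whose protein reaches towards the peptidyl transferase centre, had 21.9 to 37.8 against 11.4 to 24.6 CPM, ranges that overlapped, with a log2 fold change of 0.77 (SE 0.108). The parent Rpl3 was at -0.00 (SE 0.0645).

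The next copies in order of counts rose more and their ranges did not overlap. Rps2-ps10, on chromosome 18 over an exon of Gm58349, had 21.9 to 37.0 CPM in the 22 series and 6.94 to 12.8 in the others, a log2 fold change of 1.71 (SE 0.0909). Rpl10-ps3 (chr9:50255501-50256268), which the annotation calls protein-coding, is a copy of Rpl10, a protein that joins the large subunit late in its assembly. It had 25.3 to 36.1 against 4.85 to 9.56 CPM, a log2 fold change of 2.14 (with SE 0.106, adjusted p 4.55e-16 by edgeR), while Rpl10 was at 0.00 (SE 0.0732). Rpl31-ps8 had 21.3 to 28.3 against 6.82 to 10.9 CPM. Rps16-ps2 had 19.1 to 29.6 against 5.04 to 8.54 CPM. Their log2 fold changes were 1.48 (SE 0.0759) and 1.87 (SE 0.0888), and the parents Rpl31 and Rps16 were at 0.11 (adjusted p 0.212 by edgeR) and 0.31 (adjusted p 0.00141 by edgeR).

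**Figure D2:**
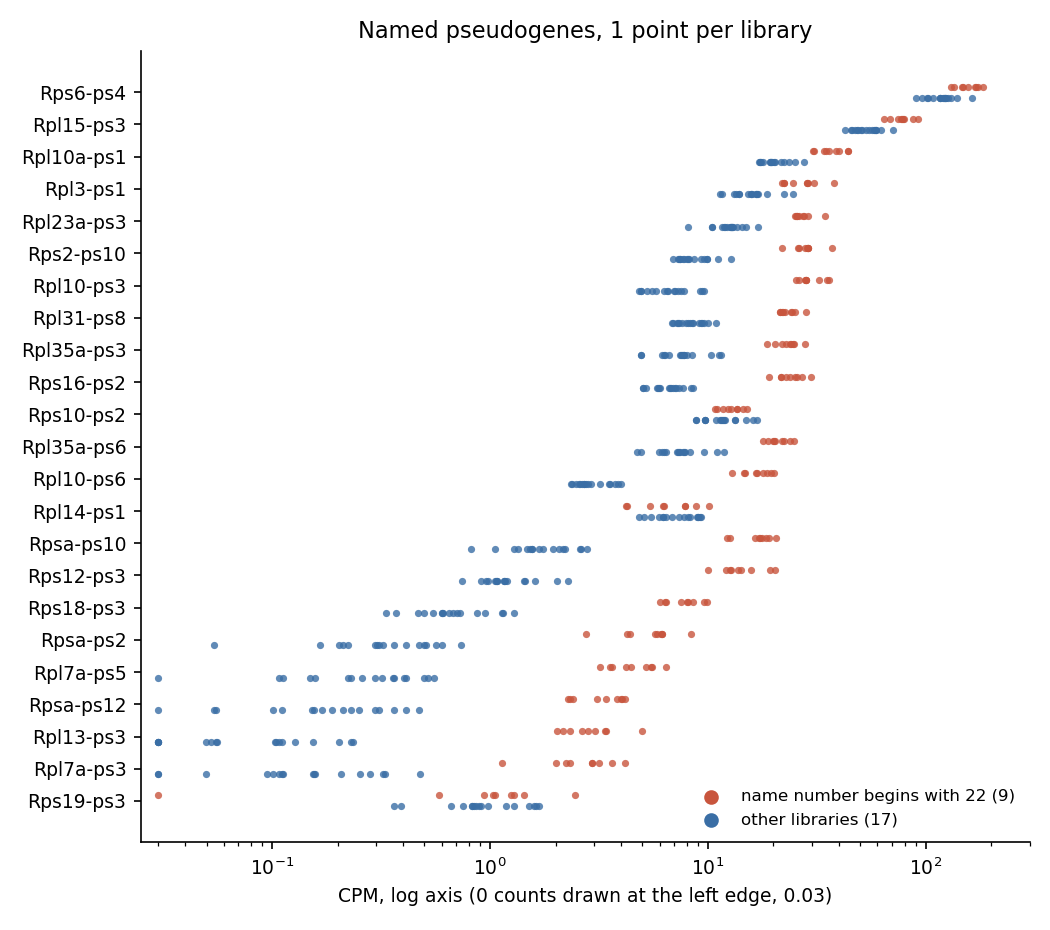
CPM on a log axis of the 23 named pseudogenes, 1 point per library, red for the 9 libraries of the 22 series and blue for the other 17, ordered by mean CPM with the highest at the top. Red and blue overlap for Rps6-ps4, Rpl15-ps3, Rpl3-ps1, Rps10-ps2, Rpl14-ps1 and Rps19-ps3 and are apart for the others.

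The largest rises were in copies that were near 0 outside the 22 series. By the rule used, these came from the genes called higher whose mean log2 CPM was 0 or above, of which 5 are described. Rpl13-ps3 (chr14:59130955-59131578) had 33 to 77 counts in each library of the 22 series and 0 to 5 in the others, with 4 of the 17 at 0. That is 2.03 to 4.97 CPM (median 2.81) against 0 to 0.236 (median 0.103), and its log2 fold change was 4.87 (with SE 0.341, adjusted p 1.13e-12 by edgeR). Its parent Rpl13 rose by 0.48 (SE 0.0861).

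Rpl7a-ps5, Rpl7a-ps3, Rpsa-ps12 and Rpsa-ps2 behaved alike, with log2 fold changes of 3.96 (SE 0.267), 3.94 (SE 0.336), 3.93 (SE 0.287) and 3.89 (SE 0.235). Rpsa-ps2 lies over an exon of Tmem198b on the same strand. Each of the 4 had at least 22 counts in every library of the 22 series and at most 14 in any other. Rpsa encodes the small subunit protein also known as the laminin receptor, and it rose by 0.33 (SE 0.0802).

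Some copies did not follow. Rps10-ps2 (chr16:20640895-20641390) had 10.7 to 15.2 CPM in the 22 series (median 12.8) and 8.77 to 16.8 in the others (median 11.6), a log2 fold change of 0.12 (with SE 0.103, adjusted p 0.407 by edgeR). It was the only copy with more counts than its parent in both kinds of library, with medians of 420 and 373 counts per 100 counts of Rps10. Rps10 shares its locus and strand with Gm49804, so its own counts, 1.70 to 4.45 CPM, are uncertain. The other copy of that gene in the table, Rps10-ps1, had 1.45 to 5.22 CPM in the 22 series and 0 to 0.699 in the others. Rpl14-ps1 (chr7:44974389-44975041) had 4.19 to 10.1 against 4.82 to 9.31 CPM, a log2 fold change of -0.10 (with SE 0.144, adjusted p 0.635 by edgeR), and its parent Rpl14 fell by 0.36 (SE 0.0783). Rps19-ps3 (chr4:147906234-147906659) had 0 to 2.45 against 0.364 to 1.67 CPM, a log2 fold change of 0.14 (with SE 0.345, adjusted p 0.790 by edgeR). These 3 were tested and did not pass. A p that misses the threshold does not show that they are equal.

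In 9 of the 47 families the parent was called lower in the 22 series. In 8 of these 9 the summed copies were higher without overlap, as they were in 38 of all 47 families. Rpl23a-ps3 (chr14:33892612-33893079, 1 substitution from Rpl23a) had 24.99 to 34.6 CPM in the 22 series and 8.14 to 16.96 in the others, and rose by 1.13 (SE 0.0815). Rpl23a fell by 1.30 (with SE 0.0905, adjusted p 1.13e-12 by edgeR), from 250 to 423 CPM in the 17 libraries to 121 to 147 in the 9. The 5 copies of Rpl35a, which include the 4 identical ones, summed to 88.9 ± 9.62 CPM (SD, n = 9) in the 9 libraries and 25.99 ± 6.08 (SD, n = 17) in the 17. Rpl35a fell by 0.69 (with SE 0.0874, adjusted p 2.03e-07 by edgeR), from a mean of 195 CPM to 120. The copies and their parent together had 209 ± 22.01 CPM (SD, n = 9) and 221 ± 37.1 (SD, n = 17), means that differ by less than the SD of either set. For Rpl23a the sum did not stay level, at 161 ± 10.3 (SD, n = 9) and 343 ± 60.2 (SD, n = 17). These families were picked by the fall of the parent, which holds most of the sum, and in the other 7 the mean sum was also lower in the 22 series, at 79.4 against 111 CPM for Rpl36a, 252 against 351 for Rps15, 269 against 375 for Rps24, 142 against 182 for Rps26, 261 against 336 for Rpl14, 307.9 against 367 for Rpl21 and 167 against 188 for Rpl30. Where the parent was called higher the sum was higher in the 22 series, such as 293 against 195 CPM for Rps12 and 455 against 327 for Rpl13, and over all 47 families it was higher in 31. How reads matching several places were assigned is not given in the sources used here, so these sums may hold a read more than once.

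The 4 identical copies of Rpl35a, which lie on chromosomes 1, 2, 5 and 17, had similar counts. Their medians in the 22 series were 23.1 CPM for Rpl35a-ps2, 23.9 for Rpl35a-ps3, 20.7 for Rpl35a-ps4 and 20.3 for Rpl35a-ps6. In the other libraries they were 5.51, 7.64, 4.93 and 7.34 CPM. The identical pair Rps19-ps1 and Rps19-ps2, both on chromosome 14, had medians of 1.81 and 1.89 CPM against 0.201 and 0.168. Their counts were equal in some libraries and not in others. In S205A control 1 both had 33 counts and in S205A control 3 both had 34, while in Y198F library 1 they had 27 and 39. Whether a read was counted at more than 1 copy was not tested. Sums over copies, and counts of copies called, may therefore rest partly on the same reads. Summed by family, the copies did not overlap between the 2 kinds of library, with the 22 series higher, in 38 of 47 families. Of all 21031 single genes 3.16% did so. The 2 shares are not directly comparable, since only 16 families hold 1 copy and the rest are sums. The largest family, the 9 copies of Rpl31, summed to 39.9 ± 4.31 CPM (SD, n = 9) against 10.7 ± 1.60 (SD, n = 17).

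The rise differed between classes of likeness to the parent and of count. The unfiltered log2 fold change had a median of 1.496 over the 11 identical copies (range 0.39 to 3.51), 2.42 over the 36 at 99% to under 100%, 3.10 over the 47 at 97% to under 99%, and 2.63 over the 31 under 97%, where it ranged from -1.11 to 5.79. Ordered by mean CPM in steps of 25 copies, from the highest, the medians were 1.59, 2.63, 3.23, 3.14 and 2.97, so they rose over the first 3 steps and not after. Spearman's coefficient of fold change with identity was -0.27 over 125 genes in the same libraries, given as a description. Identical copies differed among themselves: Rps6-ps4 rose by 0.41, while Rps12-ps3, identical to Rps12 over its length and lying over an exon of Gm59619 on the same strand, had 9.99 to 20.4 CPM in the 22 series and 0.741 to 2.27 in the others, a log2 fold change of 3.53 (with SE 0.1499, adjusted p 1.59e-17 by edgeR).

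**Figure D3:**
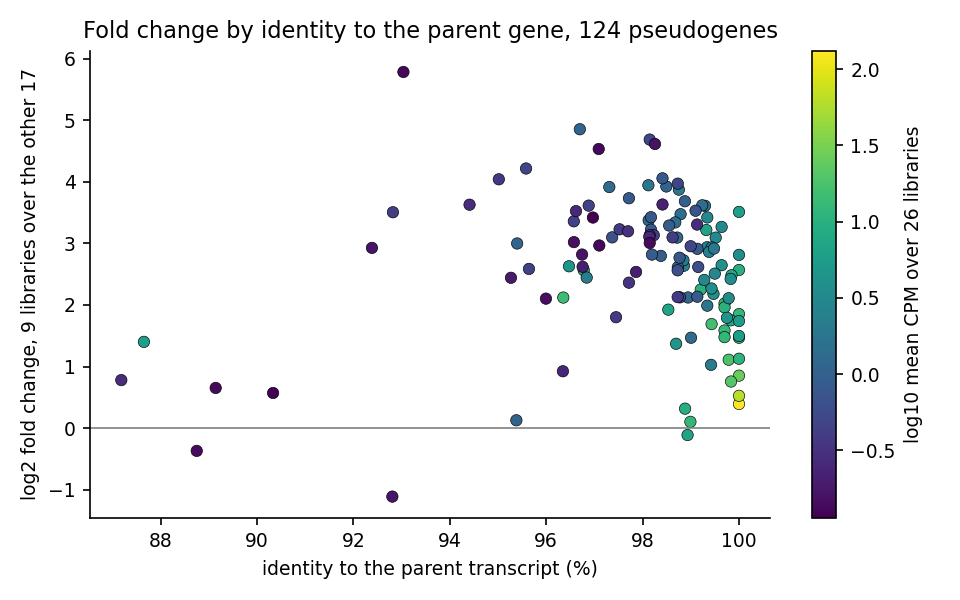
Unfiltered log2 fold change of the 22 series over the other libraries against identity to the parent transcript (%), 1 point per pseudogene and coloured by log10 mean CPM. Among the 11 identical copies at the right edge Rps6-ps4 is the lowest, and 124 are drawn, without Rpl18-ps1 at 55.6% identity.

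Relative to the parent, the most similar copies held the most counts in both kinds of library. Per 100 counts of the parent, identical copies had a median of 9.87 in the 22 series and 3.78 in the others. Copies at 99% to under 100% had 3.00 and 0.556, those at 97% to under 99% had 0.761 and 0.0873, and those under 97% had 0.250 and 0.0400. The same coefficient between identity and this ratio was 0.72 in the 22 series and 0.68 in the others, over 125 genes. The ratio of Rps6-ps4 to Rps6 was 37.4 per 100 against 28.0, and that of Rpl13-ps3 to Rpl13 was 0.637 against 0.0222. Mean CPM of a copy was hardly related to that of its parent, with a coefficient of 0.06. Copies over an exon of another gene, in introns and between genes had medians of 2.60, 2.63 and 2.82, and large and small subunit copies 2.78 and 2.63, in log2 fold change.

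**Figure D4:**
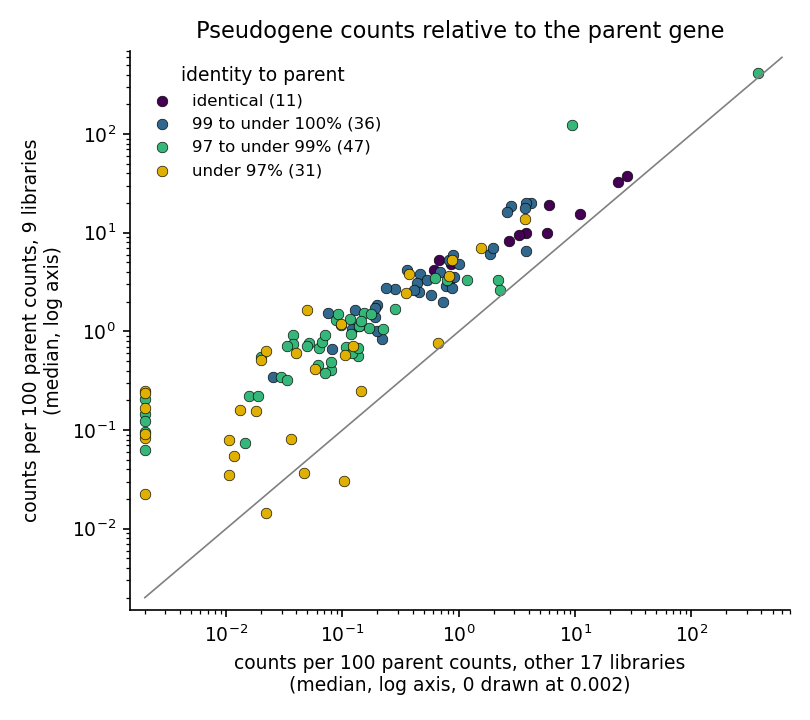
Counts of each pseudogene per 100 counts of its parent gene, as medians over the 17 other libraries (x) and over the 9 libraries of the 22 series (y), both on log axes, coloured by identity to the parent, with the line of equality. All but 3 points (Rpl30-ps2, Rpl13-ps5 and Rps12-ps26) lie above the line, and the 11 identical copies lie towards the upper right. A median of 0 is drawn at 0.002.

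The S205A line allows the comparison of the 2 kinds of library inside 1 line, with genotype as a term, 6 libraries against 2. In it 77 of 113 tested pseudogenes were higher (background 3.87%) and 0 were lower (background 1.16%), and without the filter 78 of the 125 were higher (background 2.28%). The median without the filter was 3.04, against -0.05 over all genes. The count rests on the only 2 libraries of the other kind: without S205A control 4 it was 25 (0.405% of all genes higher), and without S205A library 1 it was 29 (0.562%). Each of these fits has 1 library of the other kind, assumed to vary like the rest, and the median over those tested was 2.89 and 3.16, against 3.05 with all 8 libraries. Rps12-ps3 was at 12.7, 20.4 and 19.4 CPM in S205A controls 1 to 3 and at 12.8, 14.2 and 9.99 in S205A libraries 2 to 4, and at 1.08 and 1.05 in S205A control 4 and S205A library 1. The 2 kinds did not overlap in either genotype, and the log2 fold change was 3.77 (with SE 0.321, adjusted p 0.000526 by edgeR). Rpl13-ps3 had 33 to 77 counts in the 6 and 2 and 1 counts in the 2, a log2 fold change of 5.21 (with SE 0.683, adjusted p 0.00374 by edgeR). Rps6-ps4 had 135 to 174 CPM in the 6 and 103 and 116 in the 2, and rose by 0.54 (with SE 0.122, adjusted p 0.0394 by edgeR). Other annotated processed pseudogenes also rose in this line, with 301 of 1133 tested higher (26.6%) and an unfiltered median of 1.39 over 3591.

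The Y198F comparison, read against the labelled controls, sets 3 libraries of the 22 series against 3 of the others. Of 89 tested pseudogenes 83 were higher (background 9.55%) and 0 were lower (background 5.48%), and without the filter 88 of the 125 were higher (background 6.31%). Of 780 other annotated processed pseudogenes tested, 381 were higher (48.8%). Among the ribosomal protein pseudogenes, those with the smallest p were Rpsa-ps10, Rps12-ps3, Rpl10-ps3, Rpl10-ps6 and Rps18-ps3. Rpsa-ps10 had 20.5, 19.0 and 17.4 CPM in the Y198F libraries and 1.34, 2.08 and 1.56 in the controls, a log2 fold change of 3.50 (with SE 0.225, adjusted p 6.0e-06 by edgeR). Rpl10-ps3 had 36.1, 27.99 and 35.02 against 5.54, 7.26 and 4.94 CPM, a log2 fold change of 2.48 (SE 0.181). Rpl10-ps6 and Rps18-ps3 rose by 2.71 (SE 0.216) and 3.79 (SE 0.313). None of these ranges overlapped. Inside this comparison the kind of library and the mutation cannot be told apart.

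Set against libraries of the same kind, Y198F showed no such difference. Against S205A controls 1 to 3, which are mice of another line, 0 of 106 tested pseudogenes passed the threshold (background 0%) and 2 had an unadjusted p under 0.05, where 492 of 15879 genes did so. They were Rps2-ps13 at -0.35 (SE 0.145) and Rpl28-ps3 at -0.85 (SE 0.326). DESeq2 also called 0, with 1 at an unadjusted p under 0.05. The median was -0.06, against -0.01 over all genes. Here Rpsa-ps10 was at 12.6, 12.2 and 17.8 CPM in the S205A controls, a log2 fold change of 0.41 (with SE 0.191, adjusted p 1.000 by edgeR), and Rpl10-ps3 was at 25.3, 28.2 and 28.3 CPM, with 0.27 (SE 0.146). For Rps12-ps3 it was -0.34 (SE 0.222). When all 8 groups were fitted together and a term for the 22 series was added, the Y198F median was -0.17 and edgeR called 0 of 119 higher (8 had an unadjusted p under 0.05), as were 0% of all genes, so the count says nothing particular of these copies.

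The authors' deposited table for Y198F lists 110 of the 125, with 0 past the threshold, where 3 of its 18991 genes were (0.0158%), and a median log2 fold change of 0.27. Log2 ratios of the mean deposited normalized signal in Y198F over the 4 S205A controls differed from the authors' deposited table by a median of 0.00039, and those over the 3 labelled Y198F controls by a median of 2.48. The S205A controls hold 3 libraries of the 22 series and 1 of the other kind.

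**Figure D5:**
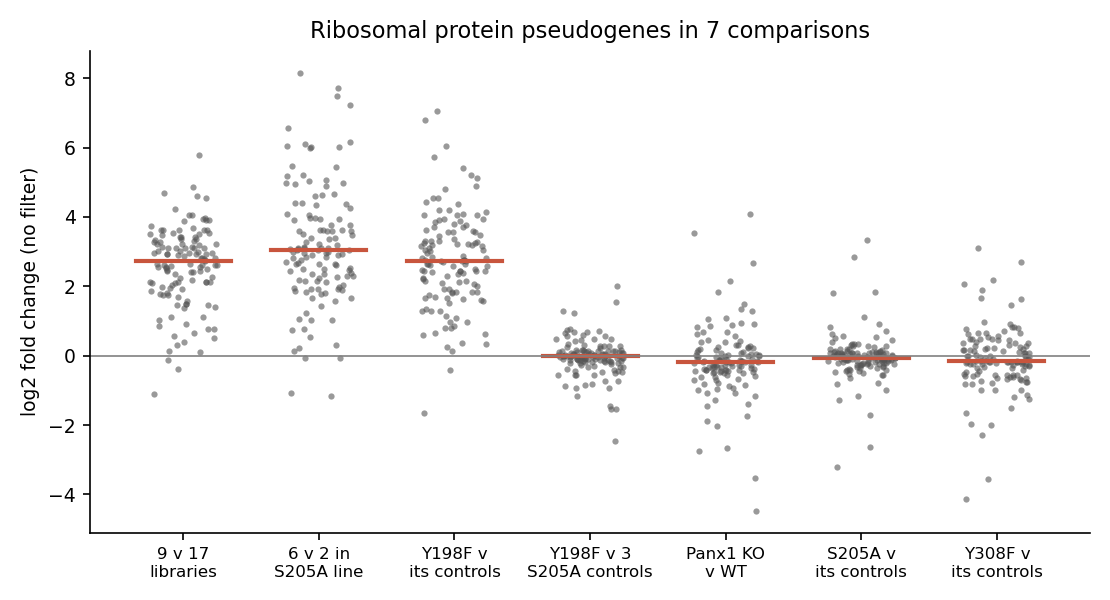
Unfiltered log2 fold change of the ribosomal protein pseudogenes in 7 comparisons, 1 grey point per gene with counts in that comparison, with the median as a red bar. The medians are 2.73, 3.04 and 2.72 in the 3 comparisons that set the 22 series against other libraries (left) and between -0.18 and -0.02 in the 4 that do not.

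In the other mutant comparisons, which set libraries of the same kind or a like mixture of kinds against each other, no pseudogene passed. In the knockout against wild type 0 of 55 tested passed (background 0.0309%) in edgeR and 0 in DESeq2, and 3 had an unadjusted p under 0.05 in each, where 1817 of 16193 genes did so in edgeR. These were Rpl3-ps1, Rps2-ps10 and Rpl30-ps9 in edgeR, at -0.50 (SE 0.154), -0.50 (SE 0.173) and -1.09 (SE 0.483). Rpl3-ps1 was at 18.6, 24.6 and 22.3 CPM in wild type and 15.3, 16.99 and 13.5 in the knockout, without overlap, with an edgeR adjusted p of 0.341. The median over the 55 was -0.22, against 0.01 over all genes, and 13 of the 55 did not overlap with the knockout lower, against 10.5% of all genes. The parent genes had a median of -0.30 in the same comparison, with 0 of 47 past the threshold and 40 of 47 not overlapping with the knockout lower.

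In S205A against its controls 0 of 98 tested passed (background 0%), in edgeR and in DESeq2, with 0 and 1 at an unadjusted p under 0.05, where 451 of 15709 genes did so in edgeR. The median was -0.03, against -0.01 over all genes. It rests on the mixture of libraries: without S205A control 4 it was -0.35, and without S205A library 1 it was 0.28. In Y308F against its controls 0 of 55 passed (background 0%), with 1 at an unadjusted p under 0.05 in edgeR, where 706 of 16037 genes did so, and 0 in DESeq2. That gene was Rpl15-ps3, at 48.5, 50.8 and 42.6 CPM in Y308F and 56.7, 62.5 and 58.2 in the control libraries, for a log2 fold change of -0.31 (with SE 0.114, adjusted p 0.940 by edgeR). The median was -0.20, against -0.03 over all genes. The authors' deposited tables list 0 of these pseudogenes past the threshold in all 4 mutant comparisons, where 0% to 0.495% of all listed genes were, with a lowest adjusted p of 0.379 in the authors' deposited table, for Rpl21-ps6 in S205A.

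Below the deposited table's minimum the same direction was seen. A further 164 genes named as ribosomal protein pseudogenes in the annotation had at most 50 counts each over all libraries. Together they had 875 counts in the 9 libraries and 349 in the 17, a rate 5.38 times higher per count of the library.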

How the data were processed

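The labels give read pairs of 150 bases. Per the submitters' processing notes and design text, the authors used GRCm39, STAR 2.7.9a and featureCounts of Rsubread 2.20.0 to make the counts. The annotation release, the use of strand and the treatment of reads matching several places are not given in the sources used here. The deposited counts table holds whole counts for 57010 genes, and the deposited normalized signal covers the 21031 with over 50 counts in total. For each mutant line the authors' deposited table, from DESeq2 1.46.0 by the submitters' notes, holds log2 fold changes, a test score and p-values.

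Genes were matched to GENCODE vM39, and 56310 of the 57010 matched. Each copy was aligned to every coding transcript of ribosomal protein genes. Tests were edgeR 4.0.16 quasi-likelihood fits (TMM, filterByExpr, robust) on the deposited counts of all genes, with Benjamini-Hochberg adjustment and a threshold of 0.05. CPM values use TMM library sizes over the 26 libraries. The 9 against 17 test has no genotype term. On simulated data for it, 98% of 2-fold changes were recovered over 16003 genes. Replicate pairs differed by more than sampling noise (chi-square per degree of freedom 13.6 to 142 over 30 pairs). Columns left unassigned numbered 0. The genes and lists were chosen with earlier results of these data known. Named genes were the 12 with the highest mean CPM, the 6 with the largest fold change in each direction among those called with mean log2 CPM of at least 0, up to 4 with the highest mean CPM among those tested and not called, up to 5 by smallest p in each of 5 mutant comparisons, and their parents. 1 gene that met this rule is not reported here. Rps10-ps1, Rps2-ps13, Rpl28-ps3, Rpl30-ps9, Rpl30-ps2, Rpl13-ps5, Rps12-ps26, Rpl21-ps6, Rpl9-ps6, Rpl18-ps1, Rpl36a-ps3, Rpl35a-ps2, Rpl35a-ps4, Rps19-ps1 and Rps19-ps2 were named after their values were seen. Alternatives were DESeq2 1.42.0, DESeq2 size factors, no filter, no ribosomal RNA or mitochondrial genes, all groups in one fit, a replicate block, each library left out, and a filter on the mean count, the last chosen after seeing the data.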

Additional observations from a re-analysis of the deposited data

Results flagged for a closer look

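The 5 results below each had 1 library apart from the rest of its group, among 32 groups examined, where chance gives about 1 in 20. S205A library 1, the only S205A library outside the 22 series, had a summed pseudogene share of 0.0336% with the nearest other S205A library at 0.0911%, and Rpl15-ps3 at 47.3 CPM with the nearest at 74.4. Within the 22 series, Rpl23a-ps3 was high in Y198F library 1, at 34.6 CPM with the nearest at 28.7. Rps2-ps10 was high in S205A control 3, at 37.0 CPM with the nearest at 28.9. Rpl13-ps3 was high in S205A library 4, at 4.97 CPM with the nearest at 3.41.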

How the results depend on the processing

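The count of pseudogenes called between the 2 kinds of library was 80 to 116 over the settings tried, against 82, with 6.75% to 19.7% of all genes higher, and 81 to 84 with each of 11 libraries left out. Within the S205A line leaving out 1 library gave 25 to 79, against 77, with 0.405% to 4.94% of all genes called higher. The low values came with 1 library of the other kind left, where the median over those tested was 2.89 and 3.16. In Y198F against its labelled controls it was 62 to 80 with a library left out (3.74% to 8.05% of all genes higher), against 83, and 0 with all 8 groups in one fit and the library series as a term. In that fit the log2 fold changes of named genes turned to -0.14 (Rpl15-ps3), -0.081 (Rpl10a-ps1), -0.18 (Rps2-ps10), -0.043 (Rpl10-ps3), -0.32 (Rpl31-ps8), -0.21 (Rpl35a-ps3), -0.066 (Rps16-ps2), -0.18 (Rpl35a-ps6), -0.15 (Rps12-ps3), -0.14 (Rpsa-ps2), -0.62 (Rpl7a-ps5), -0.34 (Rpsa-ps12) and -1.50 (Rpl7a-ps3). The fit's added term is what changed. The other 4 mutant comparisons had 0 called in every setting, 0 to 0 with a library left out.

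The ratio of summed shares, 2.60, became 3.16 without Rps6-ps4 and 4.65 as a median over genes of log2 CPM differences with 0.1 CPM added. The ratio of copies to parents as a median over genes per library, 7.70, became 5.79 with 0.1 CPM added to both, which raises genes near 0. Same-numbered samples did not deviate together throughout, with correlations from -0.384 to 0.356, so the samples share only a number. With the replicate block, the count was 76 in Y198F against its labelled controls (6.53% of all genes higher) and 0 in each of the other 4 mutant comparisons. Depth limits the low copies: 45 of the 125 had under 10 counts in each of the 17 other libraries.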
